A study of Mus musculus with 3 samples.

Results

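Antigen presentation in the juvenile and mature mouse cochlea was examined through 8 genes chosen by name out of the 32285 genes in the count tables. Of these, 4 belong to the class I route of the major histocompatibility complex (*B2m*, *H2-K1*, *H2-D1* and *Tap1*) and 4 to the class II route (*Cd74*, *H2-Aa*, *H2-Ab1* and *H2-Eb1*), and all 8 had a row of their own. Their unique molecular identifiers (UMIs, each standing for 1 captured RNA molecule) were counted in barcodes with 200 to 6000 genes and at most 15% mitochondrial UMIs. The cells came from dissociated cochleae of C57BL/6J mice (C57/B6 in the labels) at postnatal day 14 (P14) or 28 (P28), with no treatment named in the labels. P14 gave 1 library and P28 gave 2, called replicates 1 and 2, each from 14 cochleae of 7 mice and made with 10x Genomics 3′ single-cell chemistry without a sort. The mice of a library were pooled, so no value can be given per animal. The p-values rest on the spread between pooled libraries, estimated with information shared across genes, and not on a gene's own spread alone. For B-lineage-like against non-haematopoietic cells the shared spread was used alone, and a gene's own spread had no weight.

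Class I molecules show peptides from proteins made inside a cell to cytotoxic T cells. They consist of a heavy chain, such as those encoded by *H2-K1* and *H2-D1*, and the light chain β2-microglobulin (*B2m*), and the transporter subunit *Tap1* helps to bring peptides to them. Class II molecules show peptides from proteins taken up from outside to helper T cells, and are made mainly by macrophages, dendritic cells and B cells. *H2-Aa*, *H2-Ab1* and *H2-Eb1* encode their α and β chains, and *Cd74* encodes the invariant chain that holds the groove until a peptide is loaded. In the cochlea, resident macrophages are found in the lateral wall, the spiral ganglion and below the sensory epithelium.

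The 6 genes other than *B2m* and *Cd74* lay on chromosome 17 within 1271 kb (GRCm38), the mouse H2 complex. There *H2-K1* is at chr17:33996017-34000347, *Tap1* at chr17:34187553-34197225, *H2-Ab1* at chr17:34257689-34269419, *H2-Aa* at chr17:34282744-34287823, *H2-Eb1* at chr17:34305867-34316674 and *H2-D1* at chr17:35262730-35267499. *B2m* is at chr2:122147686-122153083. In the RefSeq promoter table (GRCm38.p6), 6 of the 8 genes had an entry, and *H2-Ab1* and *Cd74* had none. Windows of the 180 bases before the start site are shown for 3 class I and 2 class II genes. In what follows, the levels of these genes were more alike within a route than between routes. Each window reads 5′ to 3′ on the strand of its gene. Capitals mark GATTGG or its reverse complement (the reversed CCAAT box, known as the Y box in class II promoters), GAAA, any 2 bases and GAAA (a form of the interferon-stimulated response element), and GGGA, any 4 bases and CC (a form of the NF-κB motif), all searched on both strands.
*B2m* (chr2:122147507-122147686, plus strand): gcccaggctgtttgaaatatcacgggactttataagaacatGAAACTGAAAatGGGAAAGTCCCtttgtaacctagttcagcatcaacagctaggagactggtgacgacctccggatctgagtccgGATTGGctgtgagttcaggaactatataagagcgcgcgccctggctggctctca
*H2-K1* (chr17:34000348-34000527, minus strand): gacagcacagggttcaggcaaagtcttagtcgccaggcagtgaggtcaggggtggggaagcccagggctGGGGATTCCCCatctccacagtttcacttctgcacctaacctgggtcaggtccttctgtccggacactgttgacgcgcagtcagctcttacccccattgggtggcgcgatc
*H2-D1* (chr17:35262914-35263093, plus strand): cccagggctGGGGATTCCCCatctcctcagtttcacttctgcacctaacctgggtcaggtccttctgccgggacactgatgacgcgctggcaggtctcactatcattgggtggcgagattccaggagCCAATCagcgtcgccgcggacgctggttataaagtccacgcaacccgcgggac
*H2-Aa* (chr17:34287824-34288003, minus strand): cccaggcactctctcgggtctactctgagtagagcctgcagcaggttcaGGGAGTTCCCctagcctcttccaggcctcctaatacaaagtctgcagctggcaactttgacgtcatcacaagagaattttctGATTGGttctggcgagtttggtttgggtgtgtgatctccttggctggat
*H2-Eb1* (chr17:34305687-34305866, plus strand): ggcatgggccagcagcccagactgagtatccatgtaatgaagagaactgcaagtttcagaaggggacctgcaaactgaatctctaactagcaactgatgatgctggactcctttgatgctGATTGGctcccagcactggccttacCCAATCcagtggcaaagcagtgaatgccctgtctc

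GATTGG began 54 bases before the start in *B2m* and 49 bases before it in *H2-Aa*. Its reverse complement began 53 bases before the start in *H2-D1*, and *H2-Eb1* held the forward form at 60 and the reverse form at 35 bases. The motif occurred in 12.2% of 32851 promoter windows of the same length. The interferon-stimulated form occurred in *B2m* alone among the 6 genes, 139 bases before the start, and in 2.01% of all windows. The NF-κB form was found in *B2m*, *H2-K1*, *H2-D1* and *H2-Aa*, where overlapping matches on both strands form 1 capital run in each, and in 13.8% of all windows. The *Tap1* window held none of the 3. *H2-K1* had a further start site in the table, at position 34000333, with the reverse form of GATTGG 6 bases before it. A match describes letters only and does not show that a factor binds there. A window without a match to these letters may still hold another form of the element.

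The libraries held 2513 barcodes at P14 and 11948 and 18196 at P28, of which 1662, 5649 and 7065 cells were kept, with a median of 2475.5, 2421 and 2036 UMIs. Mitochondrial UMIs set the libraries apart, since 19.8% of barcodes at P14 but 50.1% and 59.2% at P28 exceeded the limit. Any pair of libraries shared 4 to 10 barcodes of kept cells. Clusters were named from lists of markers as "-like" classes, and the members and all other antigen presentation genes were kept out of the clustering. Clusters that got no name held 251, 558 and 768 cells in P14, P28 replicate 1 and P28 replicate 2 (15.1%, 9.88% and 10.9%). They held 12.0%, 15.5% and 15.5% of the *B2m* UMIs. Their cells stayed among the non-haematopoietic cells but out of the classes shown and ordered below. Levels are CPM, the share of a gene in the summed UMIs of a class scaled to 1e+06, with exact Poisson 95% intervals that cover counting error only. A CPM value is a share of the RNA captured from a class, so it cannot tell more copies of 1 RNA from fewer of the rest.

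The levels of the defining markers describe the classes but do not check their names, which were given from the same markers. The 8 macrophage markers, which include the complement genes *C1qa*, *C1qb* and *C1qc* and the receptor genes *Csf1r* and *Cx3cr1*, summed in macrophage-like cells to 18060 CPM in the P14 library and to 14840 and 9309 CPM in the P28 libraries. The same markers summed to 7.46, 23.3 and 28.0 CPM in outer hair cell (OHC)-like cells. There were 65, 227 and 281 macrophage-like cells and 66, 21 and 25 B-lineage-like cells in P14, P28 replicate 1 and P28 replicate 2. Red blood cell-like, granulocyte-like, monocyte-like and T or natural killer (NK) cell-like cells were kept out of the non-haematopoietic cells, as was the Schwann cell and satellite glial cell (SC/SGC)-like class, whose clusters carried at least 3 haematopoietic markers. This left 1440, 5212 and 6450 non-haematopoietic cells. The leading genes of the SC/SGC-like clusters differed between the ages, so the class may not hold the same cells at both.

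**Figure D1:**
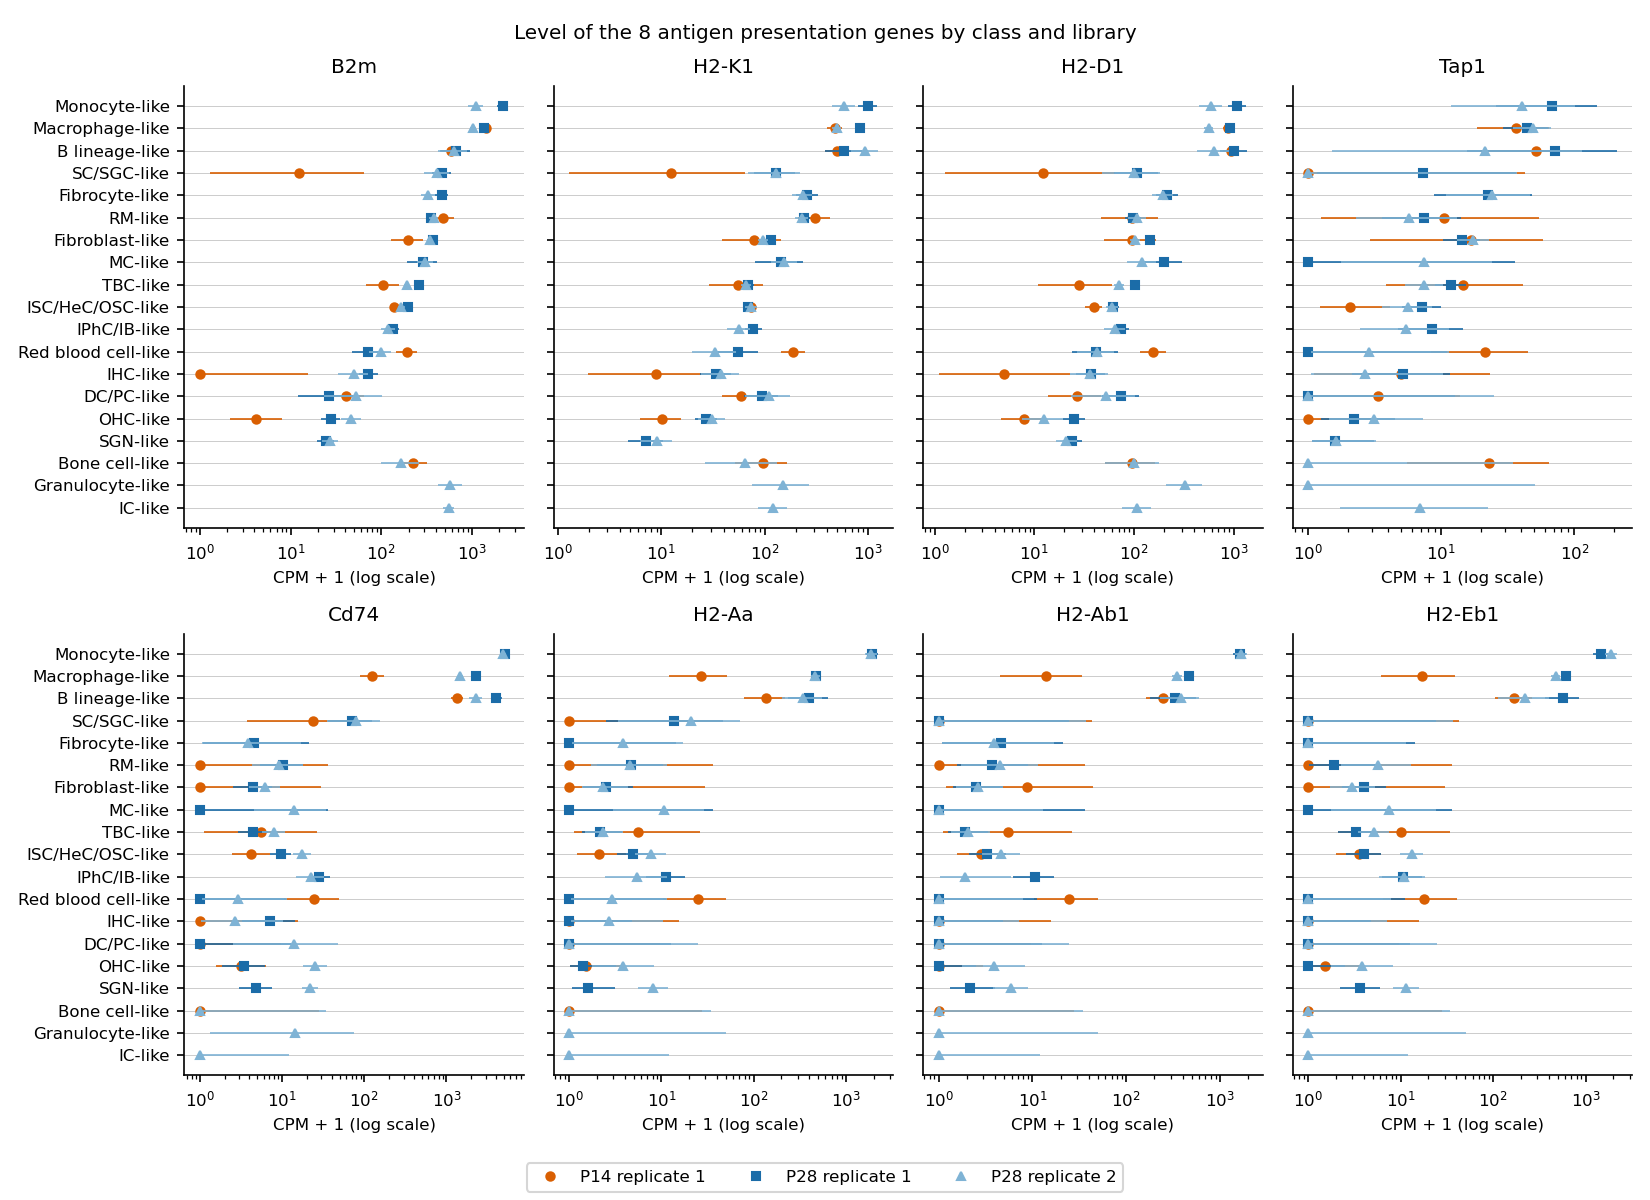
Level of each of the 8 genes (x axis, CPM + 1 on a log scale) in each named class with at least 20 cells in a library (y axis), with 1 symbol per library and exact Poisson 95% intervals as bars. At P28 the class II genes lie above 100 CPM in monocyte-like, macrophage-like and B-lineage-like cells and below 100 CPM in every other class shown, whereas the class I genes *B2m*, *H2-K1* and *H2-D1* are spread over most classes.

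All 8 genes were higher in macrophage-like cells than in non-haematopoietic cells, in each of the 3 libraries. The class I genes stood at least several-fold above the other cells, and the class II genes further above them at P28. In macrophage-like cells *B2m* was at 1414 CPM in P14, 1362 CPM in P28 replicate 1 and 1030 CPM in P28 replicate 2, against 105.5, 208 and 201.4 CPM in non-haematopoietic cells. *H2-K1* was at 476.7, 842.9 and 495.2 CPM in the same order, against 56.6, 79.5 and 77.3 CPM. *H2-D1* was at 879.9, 909.8 and 558.7 CPM, against 34.7, 80.1 and 68.5 CPM. For none of these 3 genes did the libraries of the sides overlap. *Tap1*, the transporter subunit, had few UMIs, with 35.2, 43.0 and 47.7 CPM (11, 27 and 36 UMIs) against 3.80, 6.83 and 6.88 CPM, and again no overlap. In edgeR's quasi-likelihood test with the library as a block and Benjamini-Hochberg adjustment, which called 32.7% of 13116 genes (15.6% as higher), the log2 fold changes were 3.19 ± 0.27 (SE) for *B2m* (adjusted p = 6.8e-06), 3.31 ± 0.24 for *H2-K1* (2.2e-06), 3.98 ± 0.31 for *H2-D1* (3.7e-06) and 3.10 ± 0.30 for *Tap1* (2.1e-05). Reads of *H2-K1*, *H2-D1* and the *H2-Q* genes can come from near-identical sequence, so the division of UMIs among them is uncertain.

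The class II genes were close to 0 in the non-haematopoietic cells, from which SC/SGC-like cells were kept out. *Cd74* was at 124.8 CPM (39 UMIs) in macrophage-like cells at P14 and at 2312 and 1479 CPM (1451 and 1117 UMIs) at P28, against 2.43, 6.27 and 12.0 CPM in non-haematopoietic cells. *H2-Aa* was at 25.6 CPM (8 UMIs) at P14 and 471.6 and 467.4 CPM at P28, against 0.76, 2.15 and 3.65 CPM. *H2-Ab1* was at 12.8 CPM (4 UMIs) at P14 and 466.8 and 348.2 CPM at P28, against 1.22, 1.80 and 2.59 CPM. The P14 library was the lowest of the 3 for every class II gene, but still above its own non-haematopoietic cells. *H2-Eb1* had 16.0 CPM (5 UMIs), 616.6 and 472.7 CPM, against 1.82, 2.53 and 6.28 CPM. In the same test the log2 fold changes were 7.50 ± 0.53 for *Cd74* (edgeR adjusted p = 1.7e-06), 7.40 ± 0.45 for *H2-Aa* (5.4e-07), 7.33 ± 0.64 for *H2-Ab1* (9.1e-06) and 6.72 ± 0.71 for *H2-Eb1* (3.6e-05). The class II genes passed the filter on low sums only through the macrophage-like sums. The filter thus favoured a higher level there, and these p-values add no support beyond the levels.

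B-lineage-like cells also had high levels of both routes. *Cd74* was at 1345, 4030 and 2267 CPM (160, 171 and 112 UMIs) in B-lineage-like cells. *H2-Aa* was at 134.5, 400.7 and 344 CPM, *H2-Ab1* at 243.8, 330 and 384.5 CPM and *H2-Eb1* at 168.1, 565.7 and 222.6 CPM, from 11 to 29 UMIs per library for each. As in macrophage-like cells, P14 held the lowest level of all 4 genes. Among the class I genes, *B2m* was at 580, 660 and 627.4 CPM, *H2-K1* at 504.3, 589.2 and 930.9 CPM and *H2-D1* at 941.4, 1014 and 627.4 CPM. Each was above the non-haematopoietic cells of its library without overlap of the sides. The test against non-haematopoietic cells, which called 24.3% of 12363 genes (6.37% as higher), gave log2 fold changes of 8.39 ± 0.43 for *Cd74* (edgeR adjusted p = 3.4e-81), 6.85 ± 0.50 for *H2-Aa* (2.0e-39), 7.18 ± 0.48 for *H2-Ab1* (6.3e-47) and 6.29 ± 0.49 for *H2-Eb1* (9.6e-36). It gave 1.71 ± 0.31 for *B2m* (edgeR adjusted p = 1.2e-06), 2.99 ± 0.31 for *H2-K1* (7.8e-20) and 3.66 ± 0.33 for *H2-D1* (5.7e-26). The class II genes passed the filter on low sums only through the B-lineage-like sums, so their p-values add no support beyond the levels. In this test the spread was shared fully across genes, so no p-value measures how its own gene varied between libraries. *Tap1* had 6, 3 and 1 UMIs in B-lineage-like cells, and its call (2.88 ± 0.90, edgeR adjusted p = 0.0087) was lost without P14 (adjusted p = 0.38) or without P28 replicate 1 (0.16).

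Set directly against each other, macrophage-like cells had more *B2m* than B-lineage-like cells in 3 of 3 libraries (log2 fold change 1.24 ± 0.31, edgeR adjusted p = 0.0074, in a test that called 25.8% of 3617 genes). That call was lost without P28 replicate 1, where the fold change was 1.24 and the adjusted p 0.12. *Cd74* was at the lower level in macrophage-like cells in 3 of 3 libraries, but the difference did not pass the test (-1.29 ± 0.50, edgeR adjusted p = 0.073). The other 6 genes had log2 fold changes between -0.57 and 0.08 with adjusted p from 0.51 to 1.00, and each of these fold changes took the other sign under at least 1 other setting. With an SE of 0.30 to 0.58, these values do not show that the classes were alike. The fitted 0.08 of *H2-D1* ran against its CPM, which was lower in macrophage-like cells in 3 of 3 libraries.

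Further genes of both routes were taken from a list. Of 23 class I side genes listed, 20 passed the filter on low sums, and 14 of these were higher and none lower in macrophage-like cells, with a median log2 fold change of 1.73 over the list beside -0.13 over all genes tested. The 6 that did not pass the test included *Calr*, *Canx* and *Pdia3*, chaperones of the endoplasmic reticulum, named after their values were seen. Of 17 class II side genes listed, 11 passed the filter and all 11 were higher, with a median of 4.64. A gene that passed the filter through the macrophage-like sums alone had to be higher, so these counts only describe the lists. *Ctss*, a protease that cleaves the invariant chain, was at 1757, 1611 and 899 CPM in macrophage-like cells and at 0.30, 3.13 and 4.20 CPM in non-haematopoietic cells (9.35 ± 0.65, edgeR adjusted p = 1.5e-06). *Cd86*, a costimulatory ligand for T cells, was at 67.2, 86.0 and 70.2 CPM, against 1, 3 and 2 UMIs in all non-haematopoietic cells together. *March1*, a ubiquitin ligase that lowers surface class II, was at 32.0, 44.6 and 47.7 CPM against 0, 5 and 4 UMIs. The remaining genes with the largest changes rested on few UMIs, with 1, 19 and 17 for the class I-like gene *H2-Q6*, 2, 9 and 5 for the costimulatory ligand *Cd80*, and 1, 7 and 5 for *H2-Oa*. The products of *H2-Oa* and *H2-Ob* form H2-O, which restrains peptide loading.

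In B-lineage-like cells 9 of 20 class I side genes were higher, and *Pdia3* (-1.79) and *Canx* (-1.54) were lower. On the class II side 8 of 11 were higher. The list medians were 1.40 and 5.04, beside -0.84 over all genes tested. Here too, a gene that passed the filter through the B-lineage-like sums alone had to be higher. These counts and medians only describe the lists. *H2-Ob* was at 117.7, 188.6 and 121.4 CPM against 0, 0 and 1 UMI in non-haematopoietic cells, and *H2-Oa* was at 58.8, 94.3 and 60.7 CPM against 0, 1 and 3 UMIs. *H2-DMb2*, a chain of the peptide editor H2-DM, was at 25.2, 165 and 60.7 CPM. *H2-Q6*, *H2-Q7* and *March1* were also among the largest changes, from 1 to 5 UMIs per library each. Between the classes, the proteases *Ctss* (4.42 ± 0.41), *Lgmn* (5.24 ± 0.46) and *Ctsh* (2.91 ± 0.44) were higher in macrophage-like cells (edgeR adjusted p = 1.8e-06, 1.5e-06 and 0.00014). There *H2-Oa* (-3.04 ± 0.52) and *H2-Ob* (-4.53 ± 0.55) were lower (edgeR adjusted p = 0.00044 and 2.2e-05). Both passed the filter on low sums only through the B-lineage-like sums and so had to be lower. Their p-values add no support beyond the levels. A protease that passed through the macrophage-like sums alone likewise had to be higher.

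Most class II UMIs were held by a minority of the macrophage-like cells. After each cell was thinned to 1000 UMIs, *Cd74* was seen in 6 of 55 macrophage-like cells at P14 (10.9%), 92 of 198 in P28 replicate 1 (46.5%) and 87 of 267 in P28 replicate 2 (32.6%). The median depths before thinning were 3972, 2229 and 2136 UMIs, and 10, 29 and 14 shallower cells were left out. In OHC-like cells, which give the background, *Cd74* was seen in 0 of 260 cells (which allows a share of up to 1.15%), 2 of 365 (0.55%) and 2 of 285 (0.70%), at median depths of 6510, 5251 and 3754 UMIs. Without thinning, *Cd74* was seen in 21.5%, 53.7% and 40.9% of macrophage-like and 1.44%, 1.09% and 1.40% of OHC-like cells. After thinning, *B2m* was seen in 65.5%, 67.7% and 58.4% of macrophage-like cells and in 0.77%, 1.37% and 4.21% of OHC-like cells. Counted jointly in 1 draw of the thinning, none of the 4 class II genes was seen in 49 of 55, 107 of 198 and 180 of 267 macrophage-like cells. All 4 were seen in 0 of 55 cells at P14, and in 21 of 198 (10.6%, exact binomial interval 6.7 to 15.8%) and 27 of 267 (10.1%, 6.8 to 14.4%) at P28. Of macrophage-like cells with a chain gene, *Cd74* was seen as well in 3 of 3, 37 of 37 and 48 of 52. In B-lineage-like cells none of the 4 was seen in 26 of 52, 7 of 19 and 11 of 22 cells, and all 4 in 2 cells of each library.

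**Figure D2:**
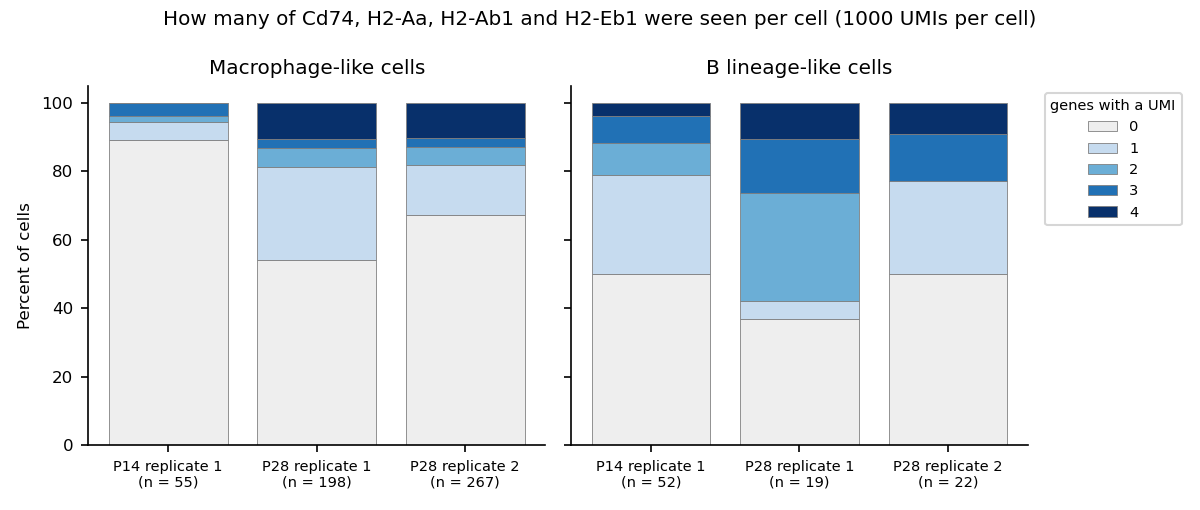
Percent of cells (y axis) with a UMI of 0, 1, 2, 3 or 4 of *Cd74*, *H2-Aa*, *H2-Ab1* and *H2-Eb1* after thinning to 1000 UMIs, by library (x axis), in macrophage-like and B-lineage-like cells. Cells with none of the 4 make up 89.1%, 54.0% and 67.4% of macrophage-like cells in P14, P28 replicate 1 and P28 replicate 2.

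Without thinning, 39 of 227 macrophage-like cells in P28 replicate 1 (17.2%) had at least 10 class II UMIs and held 88.2% of the class II UMIs of the class. In P28 replicate 2 it was 41 of 281 cells (14.6%) and 89.2%. *C1qa* was seen in 38 and 36 of these cells, so nearly all carried a defining macrophage marker. Their *Mrc1* level, the mannose receptor of tissue-resident macrophages, was 105.4 and 106.2 CPM, against 1032 and 931.5 CPM in the 105 and 162 macrophage-like cells without a class II UMI. *Lyve1*, a hyaluronan receptor, was at 0 and 10.6 CPM against 400.4 and 319.8 CPM. The chemokine receptor gene *Ccr2* ran the other way, with 131.8 and 393 CPM against 6.26 and 27.9 CPM. The lymphocyte and myeloid surface gene *Cd52* was at 1792 and 2050 CPM against 844.7 and 549.5 CPM. Cells were divided here by their class II UMIs, which deeper cells reach more easily, and *Mrc1*, *Ccr2* and *Cd52* are also markers used in naming, so these are descriptions without a test.

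The P28 sub-clusters, made without the class II genes, also differed in these genes. The sub-cluster with the most *Mrc1* (s1 in the plot, 22 and 42 cells) had 2620 and 2766 CPM of *Mrc1*, 1442 and 1012 CPM of *Lyve1* and only 150.4 and 339.9 CPM of *Cd74*. The sub-cluster with the most *Cd52* (s2, 50 and 78 cells, 2576 and 2287 CPM of *Cd52*) had 263 and 241 CPM of *Mrc1*, no UMI of *Lyve1*, and 4988 and 4361 CPM of *Cd74*. *H2-Aa* was at 12.5 and 126.5 CPM in s1 and at 1107 and 1322 CPM in s2. *B2m* did not follow this order. It was at 1918 and 1968 CPM in s1 and at 1778 and 1205 CPM in s2. A further sub-cluster (s4, 26 and 78 cells) was low in both and in macrophage markers, with 765.9 and 375.3 CPM of *Cd74*, 523.6 and 581.7 CPM of *B2m*, 203.2 and 212.7 CPM of *Mrc1* and 1118 and 925.7 CPM of *C1qa*, the last at 3456 to 5385 CPM in s0 to s3.

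**Figure D3:**
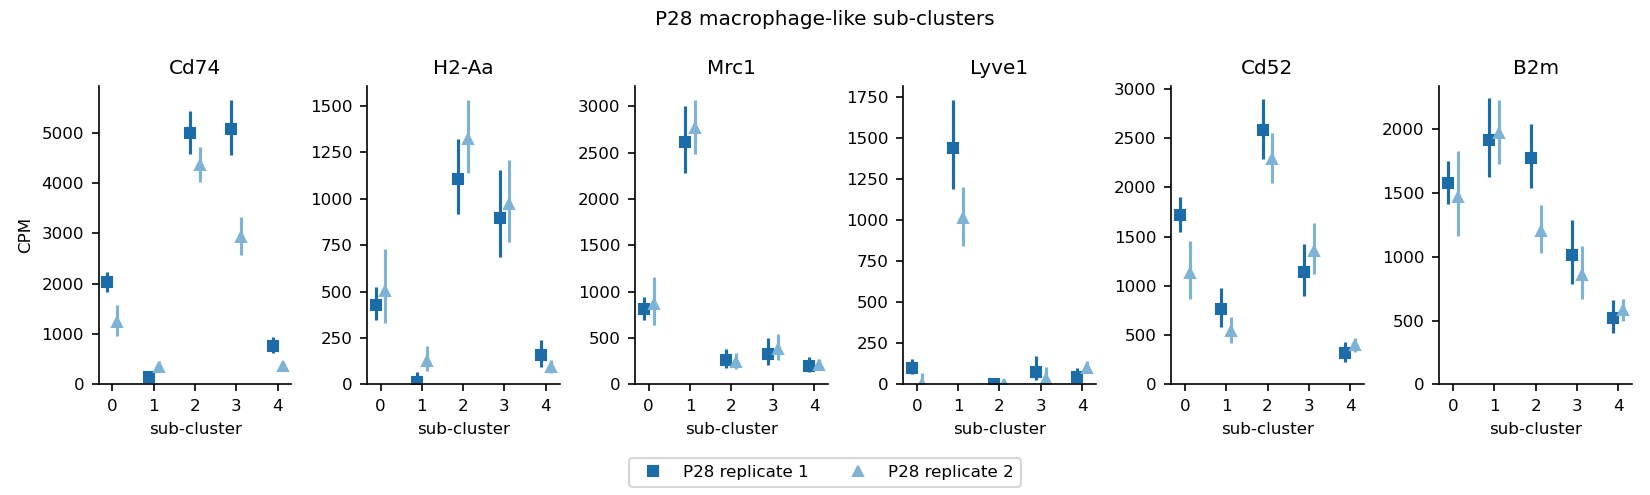
Levels of 6 genes (y axis, CPM, from 0) in the macrophage-like sub-clusters of the 2 P28 libraries (x axis, sub-cluster number), with exact Poisson 95% intervals as bars. *Cd74* and *H2-Aa* are low in sub-cluster 1 and high in sub-cluster 2 in both libraries, and *Mrc1* and *Lyve1* the reverse.

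Monocyte-like cells, found at P28 alone (22 and 32 cells), had the highest class II levels among classes of at least 20 cells, with 5160 and 4880 CPM of *Cd74*, 1911 and 1873 CPM of *H2-Aa*, 1630 and 1686 CPM of *H2-Ab1* and 1450 and 1873 CPM of *H2-Eb1*. These UMIs came from few cells. In P28 replicate 1, 8 of 22 cells held 894 of 903 class II UMIs, and in P28 replicate 2, 7 of 32 cells held 1043 of 1046.

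OHC-like cells, the electromotile sensory cells, were low in all 4 class I genes. *B2m* was at 3.20 CPM (6 UMIs) at P14 and 26.9 and 45.9 CPM at P28, against 146.4, 229.7 and 212.1 CPM in the other non-haematopoietic cells. *H2-K1* was at 9.06, 26.1 and 30.1 CPM against 75.5, 86.0 and 80.6 CPM. *H2-D1* was at 6.93, 24.1 and 11.5 CPM against 45.8, 86.8 and 72.4 CPM. For these 3 genes every OHC-like level was below every level of the other cells. *Tap1* had 0, 3 and 3 UMIs in OHC-like cells, and the others had 5.32, 7.50 and 7.21 CPM of it. It passed the filter on low sums through the other cells alone and so had to be lower, so its test only describes the levels. The log2 fold changes were -3.15 ± 0.59 for *B2m* (edgeR adjusted p = 0.0123), -1.85 ± 0.34 for *H2-K1* (0.0116), -2.20 ± 0.24 for *H2-D1* (0.0040) and -2.54 ± 0.62 for *Tap1* (0.0252), in a test that called 54.7% of 12630 genes (28.9% as lower). Without P28 replicate 1 the adjusted p became 0.060 for *B2m*, 0.053 for *H2-K1* and 0.12 for *Tap1*, and without P28 replicate 2 it became 0.066 for *Tap1*, all with the same direction. *H2-D1* passed with any library left out.

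Of the further class I list, 10 of 16 genes tested were lower in OHC-like cells and none higher (list median -1.33, beside 0.00 over all genes tested). Named after their values were seen, they included the immunoproteasome subunit genes *Psmb8* (-2.27 ± 0.31) and *Psmb10* (-2.70 ± 0.55), the proteasome activator gene *Psme1* (-2.78 ± 0.25) and the second transporter subunit gene *Tap2* (-2.69 ± 0.40). *Calr* (0.34) and *Pdia3* (0.31) did not pass. A gene that passed the filter through the other cells alone had to be lower, so this count only describes the list. Class II UMIs were few in OHC-like cells, where *H2-Aa* and *H2-Ab1* did not pass the filter and *H2-Eb1* did not pass the test (-1.93 ± 0.73, edgeR adjusted p = 0.081). *Cd74* was at 2.13, 2.41 and 24.4 CPM against 2.55, 6.73 and 11.1 CPM (0.20 ± 0.59, edgeR adjusted p = 0.79), and 1 cell held 36 of the 46 class II UMIs of the class in P28 replicate 2, without which *Cd74* was at 5.04 CPM.

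The same test was made for 11 further classes against all other non-haematopoietic cells, and *B2m* was called in 7 of them. Inner hair cell (IHC)-like cells, the main sensory receptors, had 0, 71.2 and 48.8 CPM of *B2m* (-2.25 ± 0.45, edgeR adjusted p = 0.0066, 30.9% of genes called). *H2-K1* (-1.49 ± 0.30) and *H2-D1* (-1.34 ± 0.30) were lower too. Without the block, the calls of *B2m* and *H2-D1* in IHC-like cells were lost (adjusted p = 0.077 and 0.14). Spiral ganglion neuron (SGN)-like cells, compared at P28 alone, had the lowest *B2m* of all classes there, at 23.4 and 26.5 CPM (-3.29 ± 0.12, edgeR adjusted p = 1.3e-07, 76.1% called). In them *H2-K1* was at 6.14 and 8.02 CPM (-3.74 ± 0.15), *Tap1* at 0.58 and 0.62 CPM (-3.75 ± 0.41) and *H2-D1* at 23.1 and 20.1 CPM (-2.00 ± 0.14). *Tap1* passed the filter on low sums there through the other cells alone, so it had to be lower. Deiters' and pillar cell (DC/PC)-like cells were lower in *B2m* alone, at 39.5, 25.5 and 51.6 CPM (-2.01 ± 0.31, edgeR adjusted p = 0.00055, 18.4% called). Their *H2-K1* was above the other cells in 3 of 3 libraries and did not pass (0.36 ± 0.26). Inner phalangeal and inner border cell (IPhC/IB)-like cells had 135 and 118.9 CPM of *B2m* (-0.59 ± 0.13, edgeR adjusted p = 0.0048, 40.8% called).

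Connective tissue and lining cells stood at the other end. Reissner's membrane (RM)-like cells had 475.1, 350.2 and 378.3 CPM of *B2m* (1.17 ± 0.25, edgeR adjusted p = 0.00078, 36.2% called) and 304.1, 241.7 and 227 CPM of *H2-K1* (1.83 ± 0.20, adjusted p = 5.3e-07). *H2-D1* was higher there by 0.56 ± 0.19 (edgeR adjusted p = 0.029), a call that was lost without P28 replicate 1 (adjusted p = 0.21), without P28 replicate 2 (0.40) and without the block (0.18). Fibrocyte-like cells, compared at P28 alone, had 462.6 and 329.3 CPM of *B2m* (0.96 ± 0.17, edgeR adjusted p = 0.0023, 21.3% called), and *H2-K1* (1.68 ± 0.16), *H2-D1* (1.49 ± 0.17) and *Tap1* (1.74 ± 0.42) were higher as well. Fibroblast-like cells had 196.3, 368.1 and 341.4 CPM of *B2m* (1.07 ± 0.34, edgeR adjusted p = 0.021, 43.7% called), and the other 3 class I genes were higher by 0.64 to 1.62. The 115 fibroblast-like cells of P14 were 1 cluster led by the haemoglobin genes *Hba-a1*, *Hbb-bs*, *Hbb-bt* and *Hba-a2*, ahead of *Dcn* and *Col3a1*, unlike those of P28, so they may not be the same cells. A P14 cluster of 158 cells, with *Dcn* and *Col3a1* among its leading genes, got no name and was counted among the other cells. Leaving out P28 replicate 1 or P28 replicate 2 ended the fibroblast-like calls of *B2m* (adjusted p = 0.44 and 0.36), *H2-K1* (0.73 and 0.55) and *H2-D1* (0.21 and 0.10), and leaving out P28 replicate 2 ended that of *Tap1* (0.084), all with the same direction. The calls of *B2m* (adjusted p = 0.058) and *H2-K1* (0.094) were also lost without the block. Marginal cell (MC)-like cells were higher in *H2-K1* (1.18 ± 0.21) and *H2-D1* (1.19 ± 0.27), with 8.29% of genes called, whereas *B2m* did not pass (0.78 ± 0.21, edgeR adjusted p = 0.053). In tympanic border cell (TBC)-like cells (55.2% called) no class I gene passed.

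Class II differences also appeared in a few of these classes, at levels below those of P28 macrophage-like cells. In inner sulcus, Hensen's and outer sulcus cell (ISC/HeC/OSC)-like cells *Cd74* was at 3.23, 8.74 and 16.5 CPM, against 1.845, 5.7 and 11.15 CPM in the other cells. It was higher by 1.07 ± 0.23 (edgeR adjusted p = 0.018, 39.4% called), with *H2-Aa* and *H2-Eb1* higher by 1.57 and 1.29. None of these genes would have passed the filter on low sums without the ISC/HeC/OSC-like sums, which favoured a higher level there. A single cell held 50 of the 128 class II UMIs of P28 replicate 2, and the call of *Cd74* was lost without P28 replicate 1 (adjusted p = 0.21), without P28 replicate 2 (0.17) and without the block (0.33). The other calls were lost without P28 replicate 1 as well (0.19 for *H2-Aa* and 0.11 for *H2-Eb1*), and that of *H2-Eb1* also without P28 replicate 2 (0.31). Both were lost without the block (0.16 for *H2-Aa* and 0.21 for *H2-Eb1*). In IPhC/IB-like cells *Cd74* was at 27.4 and 21.3 CPM (1.73 ± 0.44, edgeR adjusted p = 0.010) and *H2-Aa* passed too (1.69 ± 0.59). There 1 cell held 61 of 83 class II UMIs in P28 replicate 1 and 1 cell held 19 of 41 in P28 replicate 2, without which *Cd74* was at 8.96 and 12.4 CPM. SC/SGC-like cells had 22.6, 69.5 and 78.6 CPM of *Cd74* (3.10 ± 0.64, edgeR adjusted p = 0.021, 2.89% called), beside 101.9, 575 and 540.6 CPM of summed macrophage markers, and the call was lost without P28 replicate 1 (adjusted p = 0.45), P28 replicate 2 (0.18) or the block (0.079). At P28 the same marker sum was 54.8 and 35.5 CPM in IPhC/IB-like cells, and ISC/HeC/OSC-like cells had 23.2 and 21.7 CPM of it. The part of macrophage RNA or of doublets in these values was not tested. In the SC/SGC-like comparison *Cd74* passed the filter on low sums only through the SC/SGC-like sums, which favoured a higher level there. *Cd74* was lower in fibroblast-like cells (-0.99 ± 0.31) and in TBC-like cells (-0.69 ± 0.26), and without either P28 library the adjusted p was 0.40 to 0.65 in both classes. Without the block it was 0.51 in fibroblast-like and 0.69 in TBC-like cells. Fibroblast-like cells had 0, 3.41 and 5.27 CPM of *Cd74*, against 2.48, 6.63 and 13.05 CPM in the other cells. In that comparison *Cd74* passed the filter on low sums only through the other cells, which favoured a lower level in fibroblast-like cells.

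Ordered by the mean of the P28 libraries over 16 named classes, *B2m* ran from monocyte-like (2192 and 1104 CPM) through macrophage-like and B-lineage-like to SC/SGC-like, fibrocyte-like, RM-like and fibroblast-like cells, and ended with IHC-like, DC/PC-like, OHC-like and SGN-like cells. Cells of the unnamed clusters, left out of the order, had 509.2 and 378 CPM of *B2m* at P28. Neighbours overlapped in their P28 values in 8 of 15 pairs, among them all pairs from SC/SGC-like to fibroblast-like cells and from red blood cell-like (71.1 and 97.9 CPM) to OHC-like cells. For *Cd74* the order began with monocyte-like, B-lineage-like and macrophage-like cells, dropped to 69.5 and 78.6 CPM in SC/SGC-like cells, and 11 of 15 neighbouring pairs overlapped. Over 47 sums of class and library, the log2 levels of the class II genes correlated with Pearson's r of 0.95 to 0.99. *B2m* correlated with *H2-K1* and *H2-D1* at 0.90 each and with *Cd74* at 0.60. *H2-K1* and *H2-D1* correlated with *Cd74* at 0.71 and 0.76. *Tap1* did not divide by route, with 0.71 to 0.80 for the other class I genes and 0.75 to 0.80 for the class II genes. The sums share libraries and depth, so these values only describe the likeness of the patterns.

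P14 and P28 cannot be tested against each other with 1 library at P14. A level is called outside P28 here where its 95% interval overlapped neither of the P28 intervals. In macrophage-like cells *Cd74* was 18.5- and 11.9-fold higher in the P28 libraries than in P14, and the summed chain genes *H2-Aa*, *H2-Ab1* and *H2-Eb1* were at 54.4 CPM in P14 and 1555 and 1288 CPM in the P28 libraries (28.6- and 23.7-fold). The interval of P14 lay below both P28 intervals in each case. No class I gene was outside P28. *B2m* was 0.96- and 0.73-fold and *H2-D1* 1.03- and 0.64-fold of its P14 level. These class II values depend on 4 cells. An 11-cell sub-cluster at P14, named granulocyte-like from the markers of its majority, held 465 of the 689 *Cd74* UMIs of the whole library, and all 465 came from 4 cells. These 4 cells had *Ccr2* (20 UMIs) and no UMI of the neutrophil genes *S100a8*, *Ngp* and *Camp*. The other 7 had 2658 UMIs of *S100a8* and no class II UMI. Of the dendritic cell markers counted in the 4 cells, *Cd209a* had 21 UMIs in 3 cells and *Itgax* 3 UMIs in 2. *Zbtb46* had 1 UMI and *Flt3* had none. Of the macrophage markers, *C1qa* had 2 UMIs, *C1qb* 1 and *Mrc1* 4, each in 1 cell. The type of these 4 cells was not tested.

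With macrophage-like, monocyte-like and granulocyte-like cells pooled, *Cd74* was at 1428, 2642 and 1732 CPM in P14, P28 replicate 1 and P28 replicate 2, and the chain genes at 2009, 1964 and 1637 CPM, so that P14 was no longer the lowest for the chains. A gate on macrophage markers in single cells, without clusters, gave 1008, 1719 and 1571 CPM of *Cd74* and 1543, 1278 and 1344 CPM of the chains. Before the sub-clustering, the macrophage-like cells had 1449, 2200 and 1781 CPM of *Cd74* and 2040, 1430 and 1560 CPM of the chains. Under these 3 definitions *Cd74* stayed lowest at P14, at much smaller ratios, and the chains did not. With sub-clustering kept and the first clustering made finer, at resolution 2, macrophage-like cells had 1572, 2273 and 1438 CPM of *Cd74* and 2226, 1574 and 1295 CPM of the chains. There *Cd74* at P14 lay between the P28 libraries and the chains were highest at P14, so the age difference of the class II genes depended on how the cells were grouped.

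**Figure D4:**
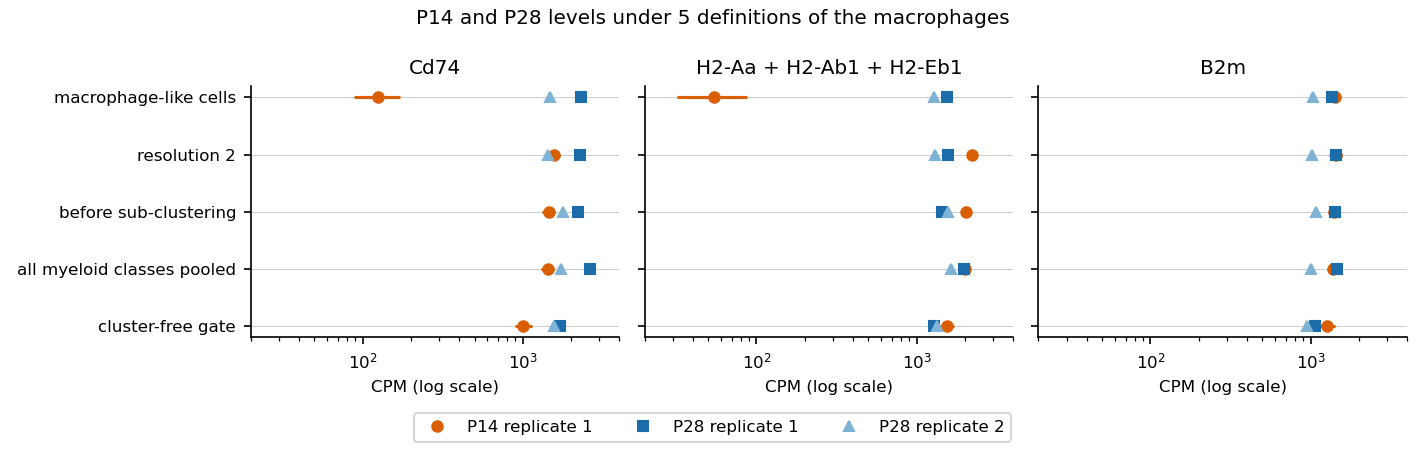
Levels at P14 and in the 2 P28 libraries (x axis, CPM on a log scale) of *Cd74*, the summed chain genes and *B2m* under 5 definitions of the macrophages (y axis). The P14 symbol lies far left of the P28 symbols for the class II genes under the main definition, closer to them, between them or right of them under the other 4, and near them for *B2m* under the main definition (1414, 1362 and 1030 CPM).

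B-lineage-like cells also had less *Cd74* at P14, with 3.00- and 1.69-fold more in the P28 libraries, and 2.37- and 1.74-fold more of the chains. The P14 cells came in a pair of sub-clusters. One had 40 cells, 7269 CPM of the light chain gene *Igkc* and 1293 CPM of *Ms4a1* (CD20), and 2286 CPM of *Cd74*. The other had 26 cells with the surrogate light chain genes *Vpreb1* (2754 CPM) and *Igll1* (1800 CPM) of precursor B cells, and 270 CPM of *Cd74*. The chains followed, with 346.9 and 126 CPM of *H2-Ab1*, whereas *B2m* was at 646.5 and 504.1 CPM. The 40-cell sub-cluster of P14 was thus within the range of the whole B-lineage-like class at P28 for *Cd74*. *Vpreb3*, also on the list of precursor B genes, was among the leading genes of both P14 sub-clusters. The stage of the 40 cells was not tested. The P28 B-lineage-like cells had 47 and 830 CPM of *Vpreb1*, so the makeup of the class differed between libraries.

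Among 11 named classes found at both ages, class I levels at P14 were below both P28 libraries in 9 of 44 cases, above both in 3 and not outside in 32. For class II it was 6, 0 and 38 of 44. The 6 include *Cd74*, *H2-Aa*, *H2-Ab1* and *H2-Eb1* in macrophage-like cells, where the age difference depended on how the cells were grouped. The rest were *Cd74* in B-lineage-like and ISC/HeC/OSC-like cells. The same count was not made over all genes, and the intervals cover counting error only. The counts thus describe the members and cannot be told apart from a general difference between the libraries. *B2m* was lower at P14 in OHC-like cells (8.41- and 14.4-fold more at P28), in IHC-like cells (0 UMIs at P14), and in TBC-like and SC/SGC-like cells. Another of the 9 cases was *B2m* in the fibroblast-like cells, whose P14 cluster was led by haemoglobin genes. Cells of the unnamed clusters, not counted here, were also lower at P14 in *B2m* and *H2-K1*. The 3 higher cases were all in red blood cell-like cells. Their summed haematopoietic markers were at 1212 CPM in P14 and at 16.4 and 22.6 CPM in the P28 libraries. The class may thus not hold the same cells at both ages. For OHC-like cells, the P28 mean of *B2m* was 36.4 CPM, and 17.8 CPM without the 5% of cells with the highest doublet scores. The other non-haematopoietic cells went from 146.4 CPM at P14 to 229.7 and 212.1 CPM. The part of free RNA in the OHC-like difference was not tested.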

How the data were processed

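The authors deposited raw UMI counts per gene and barcode for each library, made by Cell Ranger (6.0.1 in the submitters' processing notes, another version in the file headers) with genome build mm10. Cell Ranger had aligned the reads, collapsed UMIs and called cells, and these counts carried no further filter or normalization. Library totals were 10125255 UMIs at P14 and 35485894 and 37530956 at P28. Cells with 200 to 6000 genes and at most 15% mitochondrial UMIs were kept. They were clustered in Seurat 5.3.0 (R 4.3.3; 2000 variable genes, 30 principal components, resolution 1; P14 alone, P28 after integration), without the members and the other listed genes as variable genes. White blood cell clusters were sub-clustered in scanpy 1.11.5 (1000 variable genes, 15 components, resolution 1), a step chosen after seeing the data. A name needed at least 3 markers of its type at a log2 ratio of 1 or more and in at least 5% of cells. No cell was removed as a doublet.

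UMIs were summed per class and library for classes with at least 20 cells, and tested in edgeR 4.0.16 (quasi-likelihood, TMM, default filter on low sums, Benjamini-Hochberg, threshold 0.05) with the library as a block. Classes found at P28 alone were tested on 2 sums against 2 without it. Both sides of a comparison were taken from 1 library at a time, which pairs them physically. Their deviations correlated by 0.23 to 0.35 for macrophage-like, 0.046 to 0.15 for B-lineage-like and 0.23 to 0.28 for OHC-like cells, and by 0.082 to 0.29 between macrophage-like and B-lineage-like cells. The SE is the fold change divided by the root of F. The script was tested on simulated data with 200 genes changed 4-fold. It recovered 168 of them in the macrophage-like, 44 in the B-lineage-like and 184 in the OHC-like comparison. Between macrophage-like and B-lineage-like cells it recovered 133. For shares, cells were thinned to 1000 UMIs. Likeness used log2(CPM + 10).

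The 8 members were named in full. Further listed genes were named where they were among the 6 largest absolute log2 fold changes past the threshold in macrophage-like or B-lineage-like cells, and for *Cd74* and *B2m* the 5 most correlated genes with at least 50 CPM in 1 sum. The members and lists were chosen with earlier results of these data known. Alternatives were no replicate block, DESeq2 1.42.0 and its size factors, other filters on low sums, each library left out, the study's limits (at most 3000 genes and 15000 UMIs), 30% mitochondrial UMIs, resolution 2 and a gate on markers in single cells. Positions are from GENCODE M21. Figures were drawn in matplotlib 3.10.9 (Python 3.11.15, numpy 2.4.6, scipy 1.17.1, pandas 2.3.3).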

Additional observations from a re-analysis of the deposited data

How the results depend on the processing

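All 8 genes passed the test in macrophage-like cells under every alternative in which they passed its filter, and so did all but *Tap1* in B-lineage-like cells. Besides the 2 libraries named above, *Tap1* lost its call there with limits of 3000 genes and 15000 UMIs (1.88, adjusted p = 0.15) and at resolution 2 (2.55, 0.051). The 4293 genes called in macrophage-like cells became 2814 with no replicate block, 1648 with at least 10 UMIs in every sum, 2426 with the gate, and 1964 to 5041 with a library left out. The 2999 in B-lineage-like cells became 1733 with DESeq2, 227 with at least 10 UMIs, 1488 with the gate and 1569 to 1944 with a library left out. The 933 between these classes became 565, 101 and, with a library left out, 566 to 952. The 6910 in OHC-like cells became 4447 with at least 10 UMIs and 2390 to 10150 with a library left out. With no replicate block the other counts were 2108, 813 and 5999. Fewer genes were tested with at least 10 UMIs, and of the other changes the cause was not tested. Before sub-clustering, B-lineage-like cells formed a cluster of their own at P14 alone, so their comparisons were not run there.

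Between macrophage-like and B-lineage-like cells the log2 fold change of *Cd74* passed the test with DESeq2 size factors (-1.30), no filter (-1.10), without P28 replicate 2 (-1.82) and at 30% mitochondrial UMIs (-1.53). At 30% mitochondrial UMIs *H2-K1* (-0.14), *H2-D1* (-0.24) and *Tap1* (-0.35) took the other sign, as did *H2-K1* (-0.046), *H2-D1* (-0.048), *H2-Aa* (0.93), *H2-Ab1* (0.80) and *H2-Eb1* (1.08, adjusted p = 0.038) at resolution 2. With no replicate block *H2-Aa* (0.50), *H2-Ab1* (0.10) and *H2-Eb1* (0.57) did, with no filter *H2-Aa* (0.12) and *H2-Eb1* (0.087), and within the study's limits *H2-Aa* (0.13) and *H2-Eb1* (0.10). With a library left out the ranges were -0.26 to 0.44 for *H2-K1*, -0.38 to 0.30 for *Tap1*, -0.43 to 0.57 for *H2-Aa*, -1.37 to 0.40 for *H2-Ab1* and -0.73 to 0.77 for *H2-Eb1*. In OHC-like cells *Cd74* was at -0.068 with DESeq2 and -0.062 at 30% mitochondrial UMIs. The cause was not tested.

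The log2 ratio of P28 to P14 in macrophage-like cells, 3.92 for *Cd74* and 4.71 for the chains, was 0.61 and -0.16 with myeloid cells pooled, 0.46 and -0.45 before sub-clustering, 0.71 and -0.23 with the gate and 0.24 and -0.63 at resolution 2, and 4.50 for the chains without the highest doublet scores. No paired analysis of the ages was possible, because nothing in the labels pairs the P14 library with a P28 library. Scrublet called 3, 0 and 1 cells as doublets, too few to use, so the 5% of cells with the highest scores were left out instead, a choice made after seeing the data, which moved *B2m* in OHC-like cells from 36.4 to 17.8 CPM. With genes of mitochondria, ribosomal proteins and haemoglobins left out, the P28 means went from 1196 to 1650 CPM for *B2m* and from 1895 to 2610 CPM for *Cd74* in macrophage-like cells, from 3149 to 4635 CPM for *Cd74* in B-lineage-like cells and from 354.7 to 507.1 CPM for *B2m* in fibroblast-like cells. Mean P28 shares at 1000 UMIs, unthinned and at 500 UMIs were 63.1, 82.9 and 42.3% for *B2m* in macrophage-like cells, 0.62, 1.25 and 0.18% for *Cd74* in OHC-like cells, and 10.4, 13.5 and 6.96% for all 4 class II genes together. Depth limits class II genes outside the blood cells and *Tap1* in B-lineage-like cells, where few UMIs stand behind each level.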

Other observations

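The haematopoietic clusters were those with at least 3 haematopoietic markers or a blood cell name, SC/SGC-like cells included. They made up 13.4%, 7.74% and 8.71% of the cells in P14, P28 replicate 1 and P28 replicate 2. In the same order they held 97.7%, 93.5% and 87.0% of all *Cd74* UMIs. They held 47.0%, 19.9% and 20.1% of the *B2m* UMIs. Macrophage-like cells alone held 5.66%, 64.8% and 56.0% of the *Cd74* UMIs. T/NK-like cells, with only 6 and 15 cells at P28, had high class I levels (1559 and 1304 CPM of *B2m*, 2027 and 1826 CPM of *H2-K1*), and no *Cd74* UMI was detected at this depth.

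A fibroblast-like cluster at P28 (91 and 90 cells), singled out after its values were seen, was high in the interferon-stimulated genes *Ifit3* (186.4 and 511.5 CPM) and *Isg15* (458.4 and 437.6 CPM). The largest fibroblast-like cluster (686 and 1185 cells) had 10.65 and 11.02 CPM of *Ifit3* and 19.8 and 9.01 CPM of *Isg15*. In the former *B2m* was at 690.2 and 488.8 CPM, *H2-K1* at 246.9 and 176.2 CPM, *Tap1* at 55.4 and 68.2 CPM and *H2-D1* at 307.3 and 119.4 CPM. In the latter they were at 342.3 and 316.5, 114.9 and 97.7, 11.4 and 14.0, and 153.7 and 108.7 CPM. The clustering used other genes of the same cells, so the difference is a description with no test.

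Over the 47 sums and 10630 genes compared, the genes whose log2 levels were most like those of *Cd74* were *Lat2* (Pearson's r = 0.94), *Ifi203* (0.94), *Mndal* (0.94), *Pou2f2* (0.93) and *Abi3* (0.93). For *B2m* they were *Psme1* (0.89), *Zfp36l2* (0.88), *Cyba* (0.88), *Ctsz* (0.86) and *Parp14* (0.86).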
